A study of Atriplex prostrata and Atriplex rosea and Atriplex prostrata x Atriplex rosea with 87 samples.

Results

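The chloroplast division machinery was followed through leaf growth in Atriplex prostrata, a species with C3 photosynthesis, and Atriplex rosea, a species with C4 photosynthesis. The genes were the 10 Arabidopsis thaliana loci FTSZ1, FTSZ2-1, FTSZ2-2, ARC6, ARC5, PDV1, PDV2, MIND, MINE1 and PARC6, chosen by name. Of these, 9 were analysed, among 21971 loci of the count table in all, and FTSZ2-2 was not analysed here. Each of the 9 passed the filter on low counts, which kept 14779 loci.

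Chloroplasts multiply by pinching in the middle, and the machinery works from inside to outside. FtsZ proteins, relatives of bacterial FtsZ and of tubulin, form a ring on the stromal side of the inner envelope, and the Min proteins keep that ring at the middle of the organelle. ARC6 and PARC6 in the inner envelope pass the position of the ring to PDV2 and PDV1 in the outer envelope, which recruit ARC5, a dynamin-related protein that constricts the chloroplast from the cytosol. In young leaves division of existing plastids fills the growing cells with chloroplasts, and in many C4 leaves mesophyll and bundle sheath cells come to hold chloroplasts that differ in size and number. These roles are known from Arabidopsis.

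Whole leaves and leaf parts were sequenced as bulk RNA in 48 libraries, in 8 groups of 3 for each species. The leaves were whole at 1 mm, at 5 mm and at 7.5 mm (leaf 9 and leaf 10 as separate groups), and were divided into bottom and top at leaf plastochron indices 0.3 and 0.8. The index is a developmental age computed from leaf lengths; index 0.3 was reached at 15 mm in prostrata and 11 mm in rosea, and index 0.8 at 18 mm and 13 mm. Plants of both species were grown under the same 17 h of light per day, and no treatment or transgene distinguished the groups. Reads were counted at Arabidopsis loci, so a level in either Atriplex species also depends on how well its transcripts match Arabidopsis. Reads of close relatives (FTSZ2-1 and FTSZ2-2, ARC6 and PARC6, PDV1 and PDV2) could be divided between loci, so these loci are uncertain as single genes.

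The prostrata libraries held 8028511 to 12387428 counts in total and the rosea libraries 7647689 to 15360702. Replicates correlated at a Spearman coefficient of 0.948 to 0.997 across loci. Chi-square per degree of freedom grows with differences between replicates beyond counting error. Between the 1 mm prostrata libraries it was 1.2, 1.94 and 2.19, beside a median of 15.4 and at most 101 over all pairs of replicates. These libraries thus differed by little more than counting error, while the test shares its spread estimate over all groups. The bottom of the 15 mm prostrata leaf in replicate 3 stood apart, with the lowest prostrata levels of ARC6, PARC6 and ARC5 and the highest of PDV2. The leaf label fitted the markers: summed RBCS1A and RCA, genes of carbon fixation by Rubisco, which C4 leaves express in the bundle sheath, were at 2630 CPM (library counts scaled to a common total, TMM-adjusted) or more in every library. The shoot meristem markers STM and KNAT1 summed to 50.2 to 53.3 CPM in 1 mm leaves of prostrata and 36.5 to 47.7 CPM in those of rosea, and to at most 13.4 and 1.31 CPM in older leaves. Of 11 tissue markers listed, 9 were tested; with age 6 rose and 2 fell in prostrata, and 5 rose and 4 fell in rosea. Their part in the results on the division genes was not tested.

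**Figure D1:**
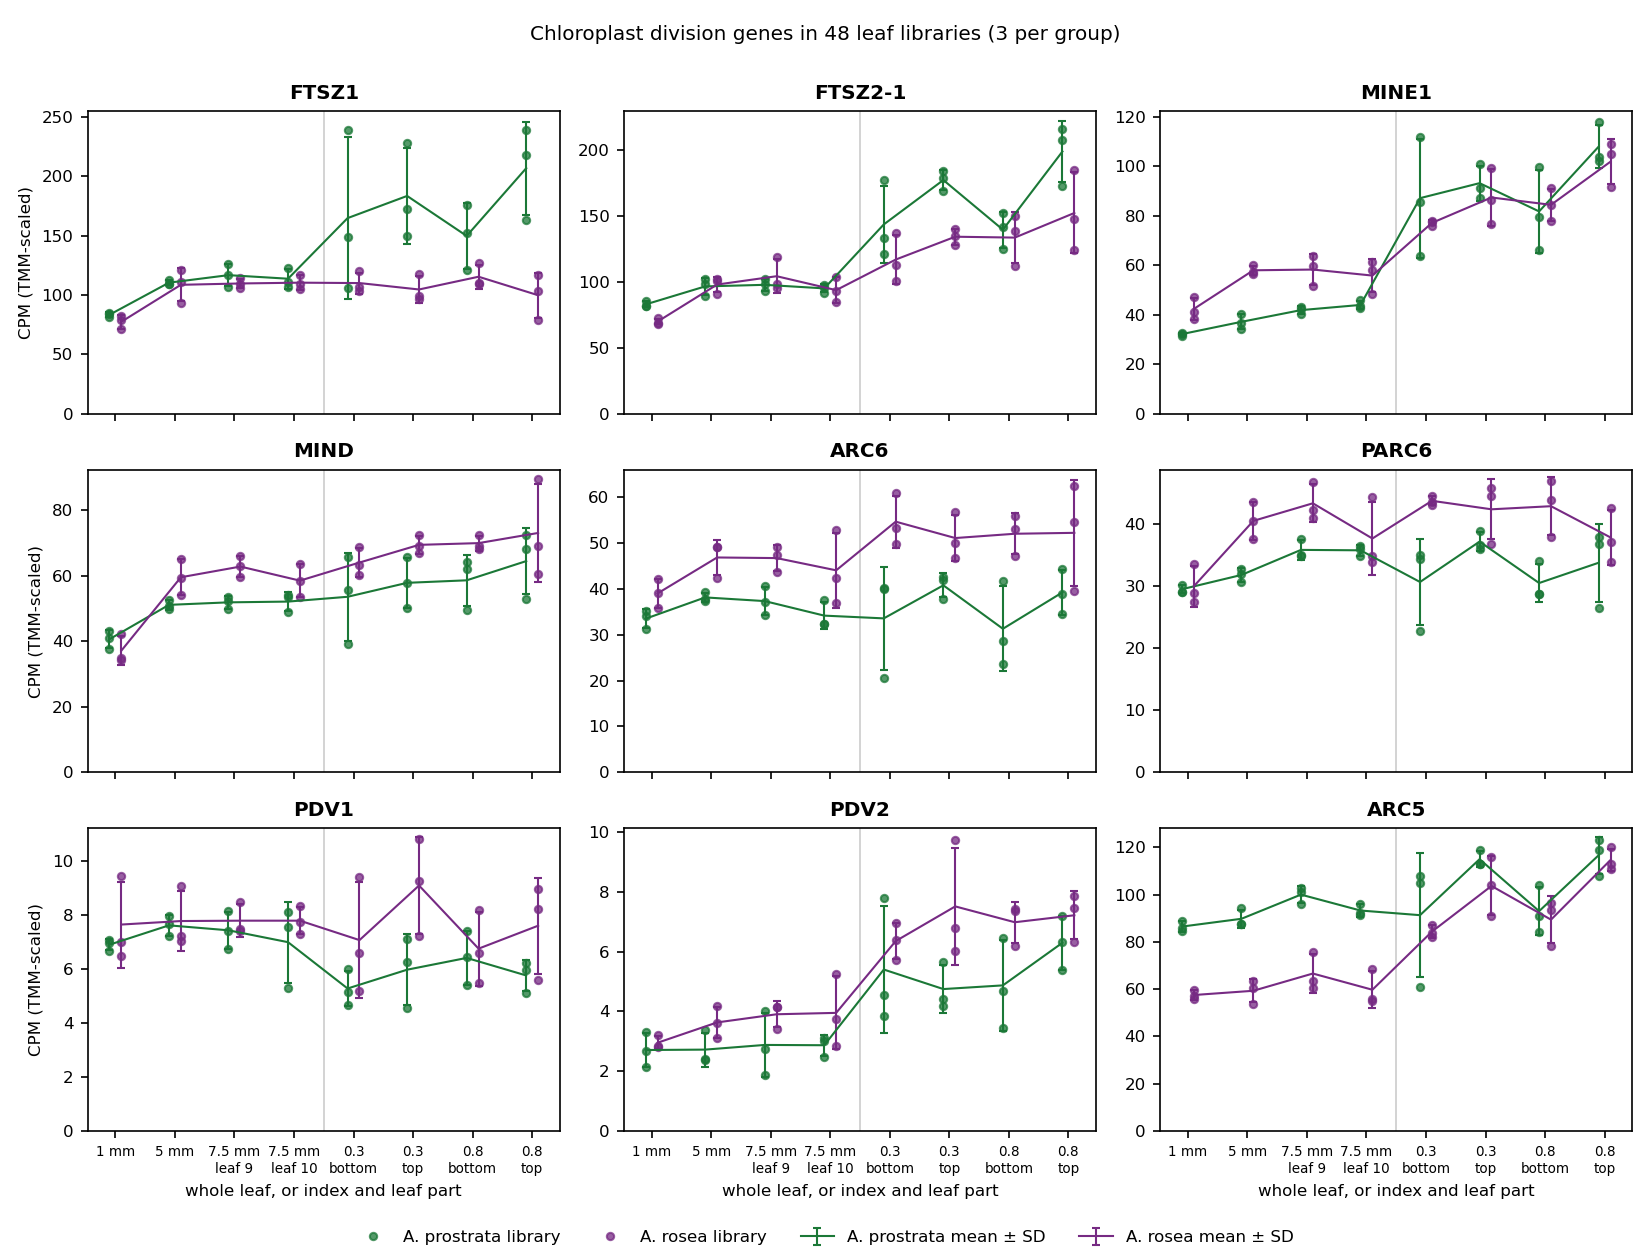
Level of each analysed division gene (vertical axis, CPM scaled by TMM, from 0) in each library (points), with group means and SD, by leaf stage (horizontal axis), for both species. FTSZ1 climbs to 239 CPM in prostrata and stays at or under 127 CPM in rosea, while MINE1, FTSZ2-1 and PDV2 climb in both.

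Leaf age was compared as the mean of bottom and top at index 0.8 against 1 mm leaves. A gene was called changed where edgeR's quasi-likelihood test gave an adjusted p under 0.05 and the log2 fold change was at least 1 in size. That test counts bottom and top as separate libraries wherever it averages them. If both came from 1 leaf, as the labels do not say, p-values of such averages would be too small where the parts deviate together. In prostrata 4 division genes were called, MINE1, FTSZ1, PDV2 and FTSZ2-1, all higher in the older leaf, where 23.5% of all tested loci were called and 15.2% were called higher. In rosea 3 were called, PDV2, MINE1 and FTSZ2-1, again all higher, where 25.2% of loci were called and 15.0% were called higher. With the adjusted p alone 6 genes passed in prostrata and 8 in rosea, where 61.6% and 60.3% of loci did. The median log2 change of the 9 genes was 0.60 in prostrata and 0.82 in rosea, beside -0.03 and -0.07 over all loci tested. In such bulk libraries a different number of cells of a type and a different amount of RNA per cell cannot be told apart.

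FTSZ1 (AT5G55280) encodes the FtsZ subunit that lends turnover to the ring. In prostrata its level was 81.1, 83.7 and 85.1 CPM in the 3 libraries of 1 mm leaves. At index 0.8 it was 176, 152 and 121 CPM in the bottoms and 239, 218 and 163 CPM in the tops. Every older library lay above every 1 mm library, and FTSZ1 rose 2.11-fold (log2 change 1.08, SE 0.16, adjusted p = 4.58e-07). In rosea the 1 mm leaves had 71.1, 82.2 and 78.9 CPM. The bottoms at index 0.8 had 127, 109 and 110 CPM and the tops 79.3, 117 and 103 CPM. Here 1 top library fell within the range of the 1 mm leaves, and the log2 change of 0.47 (SE 0.16, adjusted p = 0.00984) was under the fold threshold. The age change of FTSZ1 was smaller in rosea than in prostrata by 0.61 on the log2 scale (difference -0.61, SE 0.22, adjusted p = 0.038), where 25.2% of loci passed by the adjusted p alone. It no longer passed in 10 of 18 cases that left out 1 library, 3 of them the 1 mm prostrata libraries (adjusted p up to 0.0895).

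In prostrata FTSZ1 had already reached 109 to 113 CPM at 5 mm and 107 to 126 CPM at 7.5 mm. From 7.5 mm to index 0.3 its mean went from 115 ± 7.83 CPM (SD, n = 6) to 174 ± 50.7 CPM (n = 6), a log2 difference of 0.59 (SE 0.13, adjusted p = 0.000127). The same step in rosea gave 110 ± 4.65 CPM and 107 ± 9.67 CPM (SD, n = 6 each), a log2 difference of -0.03. In rosea the 3 libraries at 5 mm had 93.6 to 121 CPM (log2 difference from 1 mm 0.49, SE 0.18, adjusted p = 0.0418).

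Up to 7.5 mm FTSZ1 did not differ between the species beyond the error, with log2 differences (rosea over prostrata) of -0.11 to -0.03 and SE of 0.18 at each of 4 groups. At index 0.3 the difference was -0.58 in the bottom and -0.81 in the top (adjusted p = 0.00591 and 0.000268). The value in the bottom was -0.24 without replicate 1 of the prostrata libraries there, which no longer passed, and -0.82 without replicate 3. In the bottom at index 0.8 the difference was -0.38 with TMM (adjusted p = 0.0699), and -0.57 when scaled to library totals (adjusted p = 0.00295). In the top at index 0.8 FTSZ1 was 2.07-fold lower in rosea, at 99.8 ± 19.0 CPM against 206 ± 39.3 CPM (SD, n = 3 each; log2 difference -1.05, SE 0.18, adjusted p = 6.26e-06), and the libraries did not overlap. This was the only pair of gene and stage called among 72 division gene pairs, where 21.7% of the pairs of all loci were called and 25.4% of loci at that stage. With the adjusted p alone 21 of the 72 pairs passed, where 51.0% of the pairs of all loci did. It passed the fold threshold narrowly: the log2 difference was -0.94 without replicate 1 of the prostrata tops and -0.91 without replicate 1 of the rosea tops.

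FTSZ2-1 (AT2G36250), the partner subunit that gives the ring its scaffold and binds ARC6, was called higher with age in both species. In prostrata it was 81.9, 81.4 and 85.6 CPM in 1 mm leaves. It was 152, 142 and 125 CPM in the bottoms at index 0.8 and 216, 208 and 173 CPM in the tops. In rosea the 1 mm leaves had 68.4, 72.3 and 69.1 CPM, the bottoms 139, 112 and 150 CPM and the tops 124, 185 and 148 CPM. In each species all older libraries lay above all 1 mm libraries, and the rise was 2.01-fold in prostrata (log2 1.01, SE 0.12, adjusted p = 3.41e-09) and 2.04-fold in rosea (log2 1.03, SE 0.12, adjusted p = 1.88e-09). The difference between these age changes was 0.02 (SE 0.16, adjusted p = 0.942). In the tops FTSZ2-1 was lower in rosea, by log2 differences of -0.40 at index 0.3 and -0.38 at index 0.8. Both passed the adjusted p alone, also on library totals (-0.55 and -0.56). In the bottoms the TMM differences were -0.30 and -0.06, and neither passed. On library totals both bottoms passed, at -0.37 (adjusted p = 0.00412) and -0.28 (adjusted p = 0.0286). So did the 1 mm leaves (-0.30, adjusted p = 0.0262). Without replicate 1 of the 1 mm prostrata leaves the log2 changes of FTSZ2-1 and PDV2 in prostrata were 0.998 and 0.88, both under the fold threshold, and 2 genes were called there. FTSZ2-1 also went under that threshold without replicate 2 of those leaves (0.99) and, in rosea, without replicate 2 of the tops at index 0.8 (0.98).

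MIND and MINE1 place the ring. MinD is a membrane-bound ATPase that keeps FtsZ from assembling away from the middle, and MinE drives its turnover and so confines it. MINE1 (AT1G69390) showed the largest log2 age change of the 9 genes in prostrata. There it was 31.6, 32.7 and 32.3 CPM in 1 mm leaves, 66.2, 99.7 and 79.5 CPM in the bottoms at index 0.8 and 104, 118 and 102 CPM in the tops. The groups did not overlap, and the rise was 2.92-fold (log2 1.55, SE 0.13, adjusted p = 5.41e-13). In rosea it was 47.3, 38.5 and 41.3 CPM in 1 mm leaves, 84.4, 77.9 and 91.1 CPM in the bottoms and 109, 105 and 91.8 CPM in the tops, again without overlap (2.19-fold, log2 1.13, SE 0.12, adjusted p = 4.82e-10). The difference between the species in this change was -0.41 (SE 0.17, adjusted p = 0.0677), which missed the threshold with TMM; on library totals it was -0.54 (SE 0.16, adjusted p = 0.013).

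Between growth steps, in prostrata the 6 libraries at 7.5 mm held 40.2 to 45.8 CPM and the 12 libraries from index 0.3 on held 63.9 to 118 CPM, with no overlap. The step from 7.5 mm to index 0.3 was 2.10-fold (log2 1.07, SE 0.10, adjusted p = 1.25e-11). It was the only one of 72 pairs of division gene and growth step that was called, where 4.14% of the pairs of all loci were called and 15.6% of loci in that step. In rosea the same step was 0.53 (SE 0.10, adjusted p = 3.57e-05) and followed 1 of 0.45 from 1 to 5 mm (SE 0.14, adjusted p = 0.013), which was 0.19 on library totals (adjusted p = 0.256). The difference between the species in these steps was not tested. MINE1 was higher in rosea in each of the 4 groups up to 7.5 mm, by 0.34 to 0.64 on the log2 scale (adjusted p = 0.000203 to 0.0368), all under the fold threshold, and from index 0.3 on the differences were -0.17 to 0.05. On library totals MINE1 passed the adjusted p at 1 and 5 mm and not at 7.5 mm, where it was 0.28 in leaf 9 (adjusted p = 0.0734) and 0.17 in leaf 10 (adjusted p = 0.288).

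MIND (AT5G24020) went from 43.2, 37.8 and 41.0 CPM in 1 mm prostrata leaves to 49.7 to 72.4 CPM in the 6 libraries at index 0.8. In rosea it went from 34.2, 35.0 and 42.3 CPM to 60.7 to 89.6 CPM. Neither species showed overlap, yet the log2 changes of 0.60 in prostrata (SE 0.12, adjusted p = 7.22e-05) and 0.94 in rosea (SE 0.12, adjusted p = 2.84e-08) were under the fold threshold. In rosea MIND passed it without replicate 3 of the 1 mm leaves or replicate 1 of the tops at index 0.8. Between 1 and 5 mm MIND in rosea changed by 0.68 (log2 scale, SE 0.14, adjusted p = 0.000342), under the fold threshold.

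ARC6 (AT5G42480), which anchors the FtsZ ring to the inner envelope, was nearly flat with age in prostrata. Its 3 libraries of 1 mm leaves had 34.1, 31.2 and 35.1 CPM, the bottoms at index 0.8 had 41.6, 23.6 and 28.6 CPM and the tops 44.3, 34.4 and 38.9 CPM. The older libraries lay on both sides of the younger ones (log2 change 0.07, SE 0.15, adjusted p = 0.717). In rosea 1 mm leaves had 35.7, 42.1 and 39.1 CPM, the bottoms 55.9, 47.1 and 52.9 CPM and the tops 39.6, 62.4 and 54.5 CPM, with 1 top library inside the younger range (log2 change 0.42, SE 0.15, adjusted p = 0.018). PARC6 (AT3G19180), the ARC6 relative that works with PDV1 and the Min system, had log2 changes of 0.12 (SE 0.11, adjusted p = 0.345) in prostrata and 0.43 (SE 0.11, adjusted p = 0.00145) in rosea. None of these 4 changes was called.

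Averaged over the 8 matched groups ARC6 had a mean of 48.3 ± 7.16 CPM over the 24 rosea libraries and of 36.0 ± 5.78 CPM over the 24 prostrata libraries (SD). The log2 difference of 0.42 (SE 0.06, adjusted p = 1.08e-07) was the largest in favour of rosea among the 9 genes. Without replicate 3 of the 15 mm prostrata bottoms ARC6 differed by 0.40 and PDV2 by 0.43. For PARC6 the difference over all libraries was 0.26 (SE 0.05, adjusted p = 3.98e-06). Both genes were farthest apart in the leaf bottoms: ARC6 by 0.70 at index 0.3 and 0.73 at index 0.8 (adjusted p = 0.00106 and 0.000666), and PARC6 by 0.51 and 0.49 (adjusted p = 0.00131 and 0.00181). In the tops ARC6 differed by 0.33 and 0.41 and PARC6 by 0.19 and 0.16. Replicate 3 of the 15 mm prostrata bottoms, at 20.5 CPM of ARC6 and 22.7 CPM of PARC6, enters the first of these bottoms; without it ARC6 differed by 0.44 (SE 0.16, adjusted p = 0.0265) and PARC6 by 0.33 (SE 0.13, adjusted p = 0.0373). On library totals ARC6 passed the adjusted p in both bottoms (0.60 and 0.52). PARC6 passed in the bottom at index 0.3 (0.42, adjusted p = 0.0308) and not at index 0.8 (0.28, adjusted p = 0.148). The 0.41 of ARC6 in the top at index 0.8 became 0.23 (adjusted p = 0.298). Whether the gap between species differs between bottom and top was not tested.

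PDV1 and PDV2 sit in the outer envelope and bring ARC5 to the division site. They were the most thinly counted members, at 32 to 105 counts per library for PDV1 and 22 to 84 for PDV2, so their values carry the widest counting error. PDV2 (AT2G16070) was 2.13, 3.30 and 2.69 CPM in 1 mm prostrata leaves. At index 0.8 it was 3.46, 6.47 and 4.68 CPM in the bottoms and 7.20, 6.31 and 5.38 CPM in the tops. In rosea it was 2.85, 2.80 and 3.20 CPM in 1 mm leaves, 7.35, 6.19 and 7.41 CPM in the bottoms and 7.45, 7.87 and 6.33 CPM in the tops. The ages did not overlap in either species, and PDV2 rose 2.03-fold in prostrata (log2 1.02, SE 0.23, adjusted p = 0.000208) and 2.39-fold in rosea (log2 1.26, SE 0.22, adjusted p = 6.24e-06). Without replicate 2 of the prostrata bottoms at index 0.8 the change of PDV2 there was under the fold threshold as well. In the step from 7.5 mm to index 0.3 the log2 difference was 0.80 in prostrata (SE 0.18) and 0.82 in rosea (SE 0.17), both under the fold threshold.

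PDV1 (AT5G53280) did not pass the test of leaf age with TMM scaling in either species. It was 6.95, 6.68 and 7.07 CPM in 1 mm prostrata leaves and 5.10 to 7.40 CPM in the 6 libraries at index 0.8 (log2 change -0.18, SE 0.17, adjusted p = 0.358). In rosea it was 9.46, 7.01 and 6.47 CPM and then 5.47 to 8.98 CPM (log2 change -0.08, SE 0.17, adjusted p = 0.692). The ages overlapped in both species. On library totals PDV1 was lower in the older leaf at the adjusted p alone, by a log2 change of -0.73 in prostrata (adjusted p = 0.0016) and -0.75 in rosea (adjusted p = 0.000816). In the top at index 0.3 both PDV genes were higher in rosea, with log2 differences of 0.59 for PDV1 (SE 0.21, adjusted p = 0.0167) and 0.65 for PDV2 (SE 0.25, adjusted p = 0.0269), both under the fold threshold. On library totals neither passed (0.43, adjusted p = 0.148, and 0.50, adjusted p = 0.0916), and without replicate 1 of the rosea tops there the TMM value of PDV2 was 0.41.

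ARC5 (AT3G19720), the dynamin-related protein of the outer ring, started lower in rosea and ended level. In 1 mm leaves it was 85.8, 84.7 and 88.9 CPM in prostrata and 57.1, 55.8 and 59.6 CPM in rosea. In the tops at index 0.8 it was 108, 119 and 123 CPM in prostrata and 113, 120 and 111 CPM in rosea. The species did not overlap in any of the 4 groups up to 7.5 mm, where rosea was lower by 0.59 to 0.64 on the log2 scale (SE 0.13 each, adjusted p = 9.06e-05 to 0.000331), and overlapped in all 4 groups from index 0.3 on, where the differences were -0.15 to -0.02. The prostrata bottoms at 15 mm held 105, 108 and 60.9 CPM, and without the last library the difference there was -0.34 (SE 0.11, adjusted p = 0.0112).

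With age ARC5 changed by 0.27 in prostrata (SE 0.11, adjusted p = 0.0372) and by 0.82 in rosea (SE 0.12, adjusted p = 1.31e-07). The age change was larger in rosea by 0.55 (SE 0.16, adjusted p = 0.00917). With TMM scaling FTSZ1 and ARC5 were the division genes whose age change differed between species at an adjusted p under 0.05, in opposite directions. Neither difference reached the fold threshold. By both thresholds 10.9% of loci were called, and by the adjusted p alone 25.2% passed. On library totals FTSZ1 passed (-0.73, adjusted p = 0.00595), ARC5 did not (0.41, adjusted p = 0.11), and MINE1 did (-0.54, adjusted p = 0.013). Between 7.5 mm and index 0.3 ARC5 in rosea went from 63.2 ± 8.08 CPM to 94.0 ± 13.3 CPM (SD, n = 6 each; log2 0.57, SE 0.09, adjusted p = 5.54e-06).

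**Figure D2:**
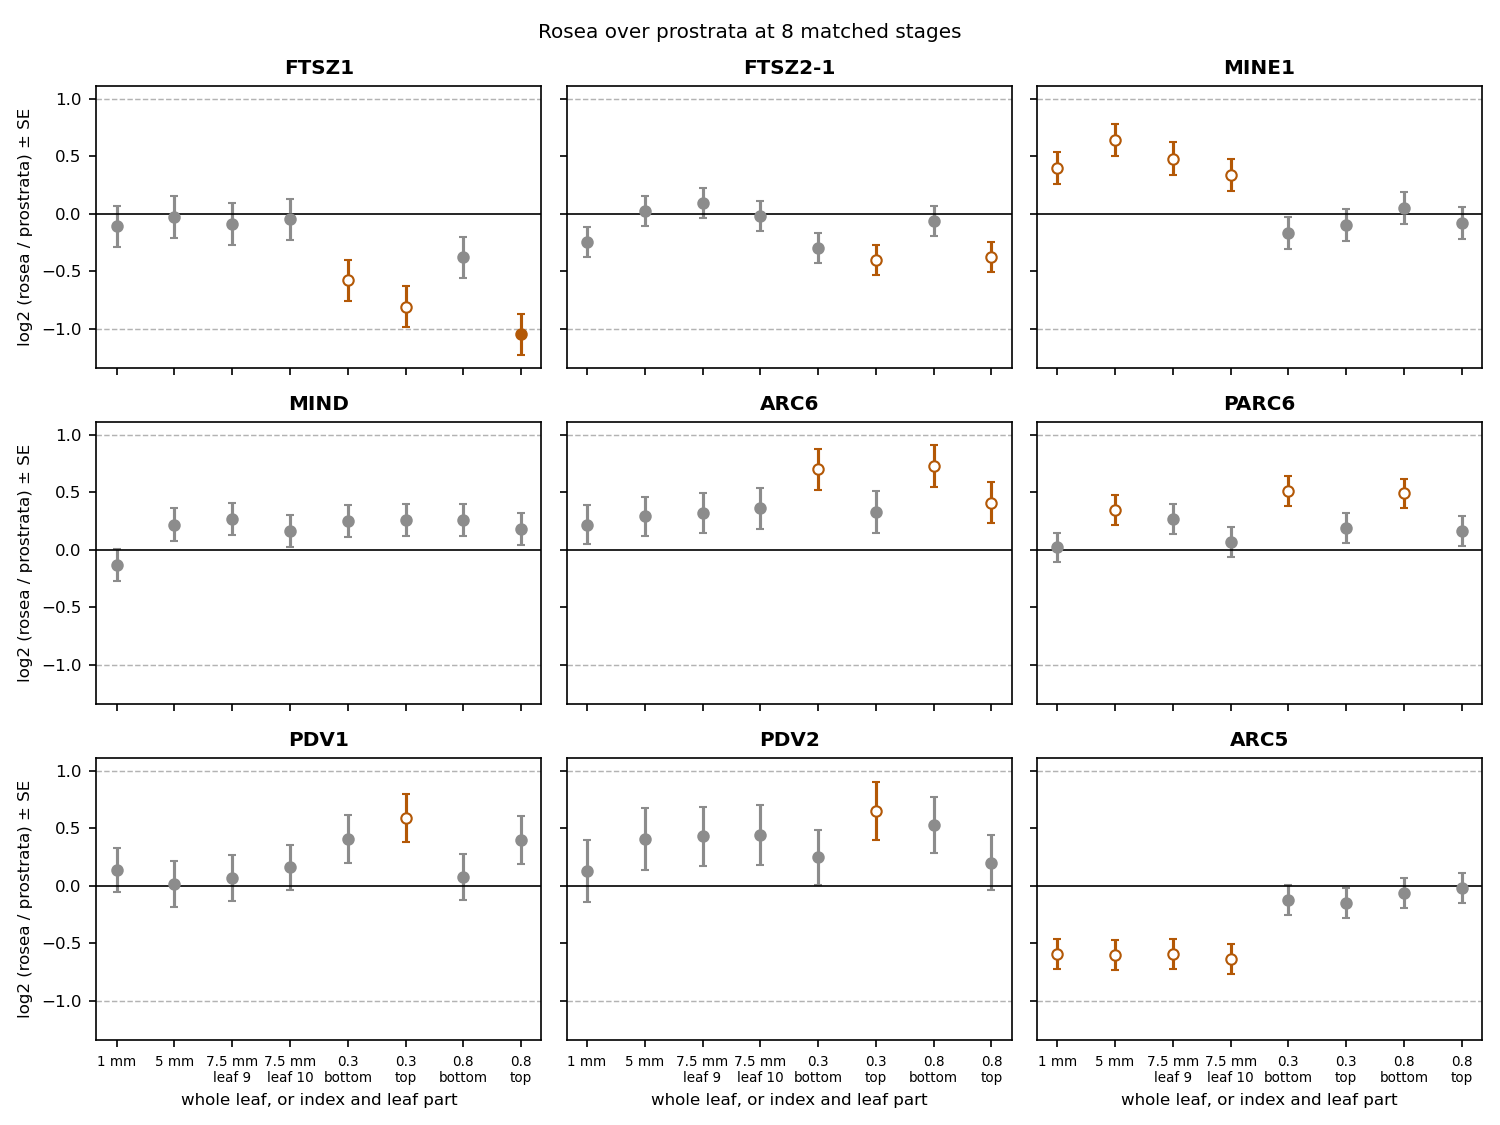
Log2 difference of rosea over prostrata (vertical axis, with SE) for each analysed division gene at 8 matched stages (horizontal axis). Filled orange points passed both thresholds, open orange points the adjusted p alone, grey points neither; FTSZ1 reaches -1.05 in the top at index 0.8, while ARC5 starts at -0.59 and ends at -0.02.

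Averaged over all matched groups, no division gene was called between the species, where 19.9% of loci were called. All 9 had an adjusted p under 0.05, as did 80.7% of loci, with 6 higher in rosea and 3 higher in prostrata. On the log2 scale PDV2 was higher in rosea by 0.38 (SE 0.09), PDV1 by 0.24 (SE 0.07), and MIND and MINE1 by 0.19 each (SE 0.05). FTSZ1 was lower in rosea by a difference of -0.39 (SE 0.06), ARC5 by -0.35 (SE 0.05) and FTSZ2-1 by -0.16 (SE 0.05). The envelope linkers ARC6, PARC6, PDV1 and PDV2 and both Min genes were on the rosea side, and the FtsZ genes and ARC5 on the prostrata side, in differences of at most 1.34-fold. On library totals these signs were the same, but PARC6 (0.11, adjusted p = 0.087), PDV1 (0.09, adjusted p = 0.316), MINE1 (0.05, adjusted p = 0.319) and MIND (0.04, adjusted p = 0.423) no longer passed.

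The size of the age changes depended on how libraries were scaled. TMM, which assumes that most loci keep their level, set the median change of all loci near 0, whereas scaling to library totals moved it to -0.58 in prostrata and -0.75 in rosea. On library totals no division gene was called with age in either species, and the share of all loci called under that scaling is not given here. MINE1 then changed by 0.99 in prostrata and 0.45 in rosea, and FTSZ2-1 by 0.45 and 0.33. FTSZ1 changed by 0.51 in prostrata and by -0.22 in rosea, so its sign in rosea turned with the scaling, though -0.22 did not pass (adjusted p = 0.149). The sign also turned for ARC6 and PARC6 in both species and for ARC5 in prostrata. Among these only ARC6 and PARC6 in prostrata passed on library totals (adjusted p = 0.00595 and 0.00838), and neither had passed with TMM. The values are relative to the other transcripts of each library, and the lower FTSZ1 in the rosea tops at index 0.8 was called under either scaling.

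**Figure D3:**
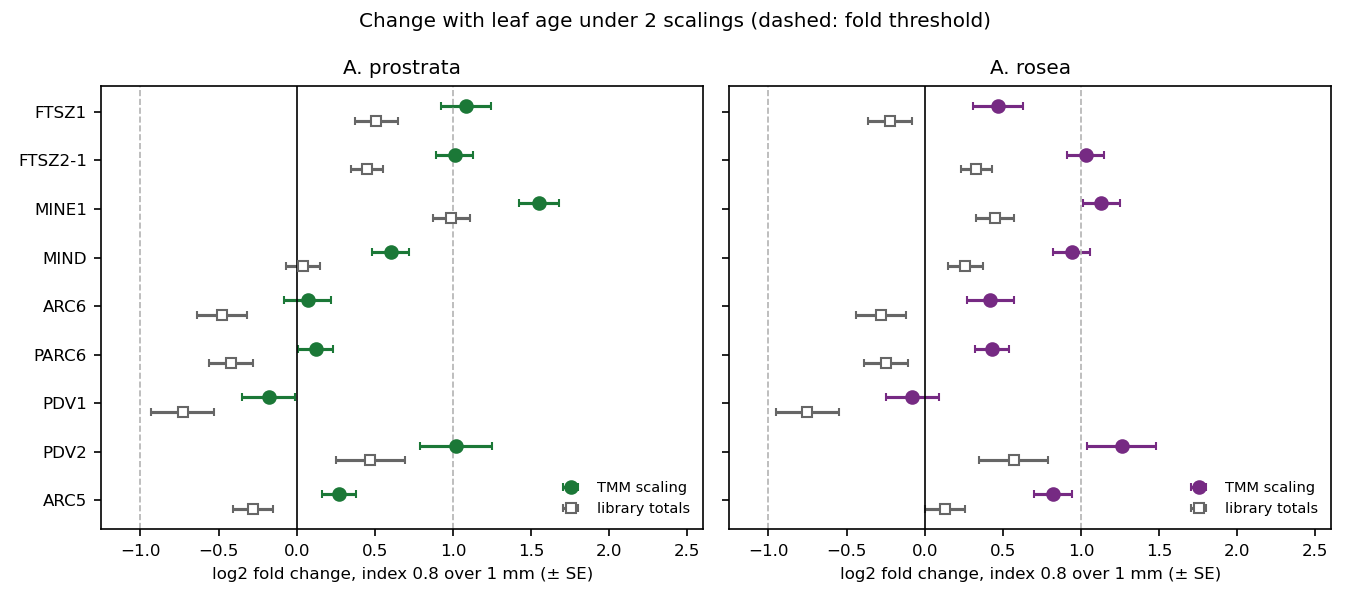
Log2 change from 1 mm leaves to index 0.8 (horizontal axis, with SE) for each analysed division gene (vertical axis) in each species, scaled by TMM (filled circles) and to library totals (open squares); dashed lines mark a log2 change of 1 in either direction. MINE1 in prostrata is at 1.55 by TMM and 0.99 by library totals.

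Ratios between partner genes within a library do not depend on that scaling. They were taken as log2 ratios of counts, compared between the 3 libraries of 1 mm leaves and the 6 libraries of index 0.8 by a two-sided exact permutation test, with adjustment over 6 tests; the smallest p this design can give is 0.0119. The test counts bottom and top as separate libraries. Bottoms and tops of equal number at index 0.8 deviated together in prostrata (r = 0.201, 0.313 and 0.384) and not in rosea (-0.101, -0.441 and -0.24). If both came from 1 leaf, as the labels do not say, these p-values are too small, and 3 leaves against 3 could not reach the threshold. The ratio of PDV1 to PDV2 fell by 1.21 in prostrata, from 1.36 ± 0.34 (SD, n = 3) to 0.15 ± 0.37 (n = 6), with an exact p = 0.0119 and an adjusted p = 0.0238. In rosea it fell by 1.35, from 1.34 ± 0.36 to -0.01 ± 0.42 (exact p = 0.0119, adjusted p = 0.0238). All older libraries lay below all younger ones in both species.

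The ratio of MINE1 to MIND rose by 0.94 in prostrata, from -0.33 ± 0.12 to 0.61 ± 0.29 (exact p = 0.0119, adjusted p = 0.0238). In rosea it was 0.19 ± 0.25 in 1 mm leaves and 0.38 ± 0.25 at index 0.8, and the difference of 0.19 did not pass the test (exact p = 0.333, adjusted p = 0.4). The ratio of FTSZ1 to FTSZ2-1 in prostrata was 0.01 ± 0.03 and then 0.06 ± 0.12, a difference that did not pass the test (exact p = 0.44, adjusted p = 0.44). In rosea it fell by 0.55, from 0.14 ± 0.08 to -0.41 ± 0.26 (exact p = 0.0238, adjusted p = 0.0357), and was lowest in the tops, at -0.36 ± 0.17 (SD, n = 3) at index 0.3 and -0.61 ± 0.08 at index 0.8. Without any 1 of the 3 libraries of 1 mm prostrata leaves no ratio passed, since the smallest p that 2 libraries against 6 can give is larger and the adjustment runs over all 6 tests. The rosea ratio of PDV1 to PDV2 also failed without any 1 of the rosea 1 mm libraries, and that of FTSZ1 to FTSZ2-1 failed without any 1 of those, any 1 of the rosea tops at index 0.8 or replicate 3 of the bottoms, in 10 of 18 cases in all, at log2 differences of -0.62 to -0.50. The difference in these ratios between species was not tested.

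**Figure D4:**
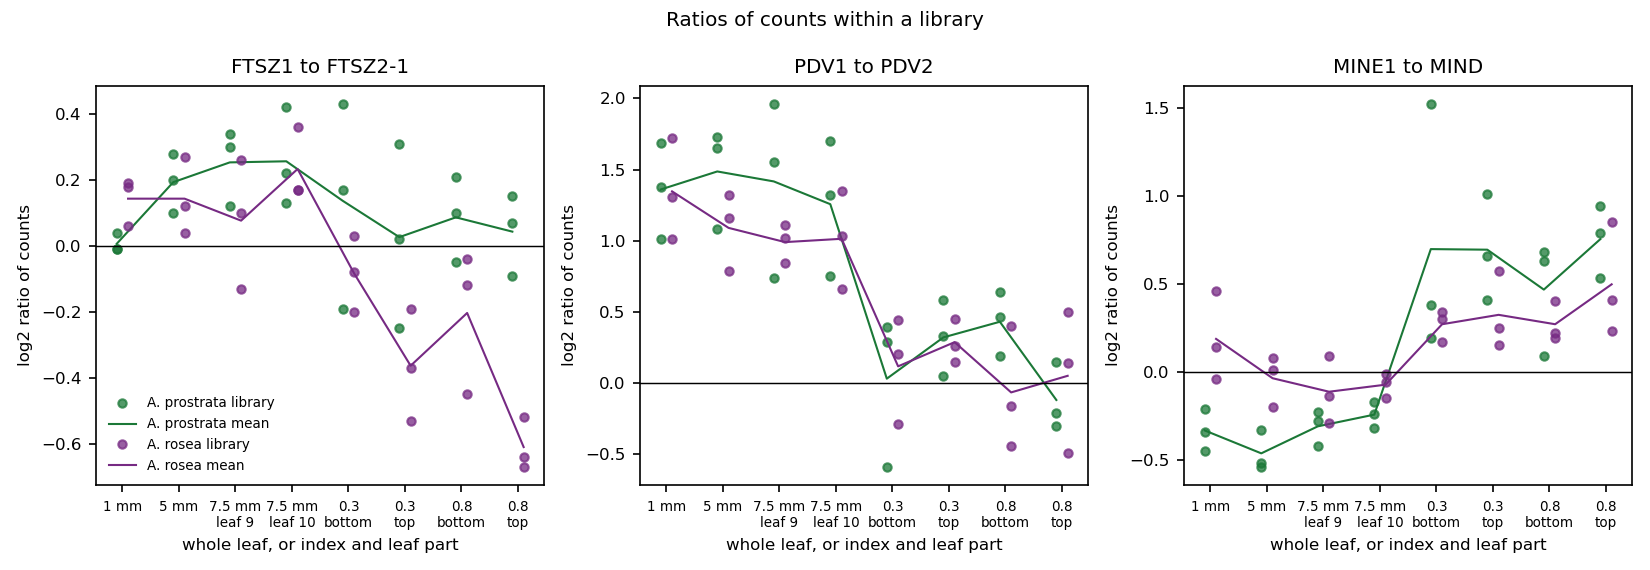
Log2 ratio of counts between partner genes in each library (vertical axis) by leaf stage (horizontal axis) for both species, with group means. PDV1 to PDV2 falls in both species, MINE1 to MIND rises in prostrata, and FTSZ1 to FTSZ2-1 falls to -0.61 in the rosea tops at index 0.8.

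Within the divided leaves no division gene was called between top and bottom in either species, where 1.22% of loci were called in prostrata and 0.582% in rosea. At an adjusted p under 0.05 without a fold threshold, FTSZ2-1 was higher in the prostrata tops by 0.40 (SE 0.09, adjusted p = 0.00365), and ARC5 was higher in the tops by 0.33 in prostrata (SE 0.09, adjusted p = 0.0142) and by 0.33 in rosea (SE 0.09, adjusted p = 0.0297). By that rule 14.1% of loci passed in prostrata and 4.74% in rosea. Without replicate 3 of the 15 mm bottoms the prostrata value of ARC5 was 0.22 (adjusted p = 0.0645) and that of MINE1 0.36 (adjusted p = 0.0117). On library totals ARC5 did not pass in prostrata (0.20, adjusted p = 0.181) or in rosea (0.19, adjusted p = 0.272), and FTSZ2-1 passed in prostrata (0.29, adjusted p = 0.00891).

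With the adjusted p alone 14 of the 72 pairs of division gene and growth step passed, where 17.0% of the pairs of all loci did. From 5 to 7.5 mm and from index 0.3 to 0.8 no division gene had an adjusted p under 0.05 in either species. Few of the 14779 loci did. From 5 to 7.5 mm 171 were higher and 32 lower in prostrata, and 1 higher and 1 lower in rosea. From index 0.3 to 0.8 4 were higher and 2 lower in prostrata, and 150 higher and 101 lower in rosea. From 1 to 5 mm no division gene passed in prostrata, where 378 loci were higher and 319 lower of 14779 at that adjusted p. In rosea 5 division genes passed, MIND, FTSZ1, FTSZ2-1, MINE1 and PARC6, by 0.44 to 0.68 on the log2 scale, where 25.4% of loci did. On library totals MIND was the 1 of these 5 that passed (0.42, adjusted p = 0.012). In the step from 7.5 mm to index 0.3 PDV1 in prostrata was lower (log2 -0.35, SE 0.14, adjusted p = 0.0356), but without replicate 3 of the 15 mm bottoms it was -0.30 (adjusted p = 0.0981). On library totals it was -0.67 (adjusted p = 0.000877), and in the same step PARC6 (-0.40) and MIND (-0.23) in prostrata and FTSZ1 (-0.29) in rosea were lower at adjusted p = 0.0028, 0.0288 and 0.0308.

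Over the 16 groups the means of MINE1 and PDV2 ran most alike among the 9 genes, with a Pearson r of 0.925. Within rosea the highest was that of FTSZ2-1 and MINE1, at 0.986, beside 0.968 for MINE1 and PDV2. FTSZ1 and PDV1 ran most unlike, at -0.725 over the 16 groups. FTSZ1 and FTSZ2-1 correlated at 0.978 in prostrata and 0.566 in rosea. Outside the machinery, the tested locus with group means most like MINE1 was AT2G43560, an FKBP-like isomerase (r = 0.994), and that most like PDV2 was AT5G64040, a subunit of photosystem I (r = 0.988). For FTSZ1 it was AT3G47650, a DnaJ/Hsp40 cysteine-rich domain protein (r = 0.97), for FTSZ2-1 AT2G01140, an aldolase family protein (r = 0.99), and for ARC5 AT3G49140, a pentatricopeptide repeat protein (r = 0.964). For MIND it was AT2G25737, a sulfite exporter family protein (r = 0.98), and for ARC6 AT3G22150, a tetratricopeptide repeat protein (r = 0.974). The lowest were for PARC6, with AT5G03406 (r = 0.901), and for PDV1, with AT5G49500, a signal recognition particle protein (r = 0.9). These coefficients describe 16 means that share libraries, scaling and leaf age.

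The other plastid division genes listed, 10 of 10 tested, were measured beside the machinery: 6 were called higher with age in prostrata and 5 in rosea and none lower, with a median log2 change of 1.24 and 1.08, where 2243 and 2211 of 14779 loci were called higher. GC1, a division factor of the inner envelope, rose by 2.15 in prostrata (SE 0.18, adjusted p = 5.22e-13) and 2.61 in rosea (SE 0.18, adjusted p = 8.69e-15). MCD1, which recruits MinD to the division site, rose by 1.49 (SE 0.18, adjusted p = 3.16e-09) and 1.67 (SE 0.17, adjusted p = 1.17e-10). CPN60A1 and CPN60B1, chloroplast chaperonins that the FtsZ ring needs, rose by 2.01 and 1.88 in prostrata and by 1.23 and 1.33 in rosea. YLMG1-1, a relative of the bacterial division gene ylmG, rose by 1.39 in rosea (SE 0.19, adjusted p = 9.71e-08). On library totals MCD1 in both species (0.93 and 0.96) and YLMG1-1 (0.70) and CPN60B1 (0.64) in rosea were under the fold threshold. ARC3, which links FtsZ to the Min system, had values of 0.28 in prostrata (SE 0.14, adjusted p = 0.0699) and 0.92 in rosea (SE 0.14, adjusted p = 3.39e-07) and was not called.

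Of 8 listed regulators 5 were tested. GLK1, GLK2 and CGA1, transcription factors that promote chloroplast development, were called higher in both species, where 15.2% and 15.0% of loci were. The lowest log2 change among the 5 was -0.23 in prostrata and -0.59 in rosea, and in rosea 1 regulator was lower at the adjusted p alone. GLK1 rose by 3.19 in prostrata (SE 0.21, adjusted p = 2.77e-15) and 2.09 in rosea (SE 0.18, adjusted p = 3.06e-12), and CGA1 by 2.81 and 1.32. On library totals GLK2 and CGA1 in rosea were under the fold threshold (1.00 and 0.64) and the other 4 changes stayed called. The age changes of GLK1 and CGA1 were smaller in rosea, by a log2 difference of -1.10 for GLK1 (SE 0.27, adjusted p = 0.00207) and -1.49 for CGA1 (SE 0.27, adjusted p = 8.19e-05). The dynamin and fission genes of mitochondria and peroxisomes gave no call with age in either species (5 of 7 tested), where 23.5% and 25.2% of loci were called. At the adjusted p alone 2 were higher and 2 lower in prostrata (log2 changes of -0.61 to 0.88 over the 5), and 1 was higher in rosea (-0.13 to 0.43). All 5 tested greening genes rose in both, with a median of 2.01 in prostrata and 2.72 in rosea. RCA, the activase of the carbon-fixing enzyme, rose by 3.22 in prostrata (SE 0.27, adjusted p = 1.03e-12), and PSAF, a subunit of photosystem I, rose by 2.90 in rosea (SE 0.26, adjusted p = 3.44e-12).

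Cell cycle genes were listed beside them. Of 8 tested, 3 fell with age in prostrata (MCM2 and MCM5 of the replicative helicase, and DRP5A, a dynamin of cytokinesis) and 8 in rosea, with a median log2 change of -0.71 and -1.52, where 1224 and 1517 of 14779 loci were called lower. MCM2 fell by 1.46 in prostrata (SE 0.18, adjusted p = 4.54e-09) and by 1.68 in rosea (SE 0.18, adjusted p = 1.64e-10). KNOLLE, a syntaxin of cytokinesis, fell by 1.70 in rosea (SE 0.26, adjusted p = 5.45e-07). DRP5A, from the same dynamin branch as ARC5, fell by 1.08 in prostrata (SE 0.25, adjusted p = 0.000268) and by 1.52 in rosea (SE 0.25, adjusted p = 1.99e-06). The listed genes were tested in the same fit across all loci, and the part of cell number or greening in the division gene values was not tested.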

How the data were processed

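The deposited file is a table of the authors' read counts, by Arabidopsis locus and library. The submitters' processing notes name CASAVA, DESeq2 and TAIR10 without versions. The aligner, counter and strand setting are not stated in the sources read here. Of 60 count columns 48 matched labelled samples; 12 matched no label and were not used. The F1 hybrid (27 of 87 labelled samples) and leaves at index 1.5 were not analysed here. Of 21976 loci 5 had values moved out of their columns and were left out.

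All loci entered 1 fit in edgeR 4.0.16 under R 4.3.3 (quasi-likelihood test, 1 mean per group over 48 libraries, TMM, filterByExpr, Benjamini-Hochberg adjustment over 14779 loci). A call needed an adjusted p under 0.05 and a log2 fold change of at least 1 in size; SE is the log2 change over the root of F. The spread between replicates was 15.7% (biological coefficient of variation). Depth is in the totals: at 22 counts, the lowest of any member, counting error is large. Ratios were of counts with 0.5 added; the FTSZ1 ratio was planned over FTSZ2-1 and FTSZ2-2 and was taken over FTSZ2-1 alone. The fit was tested on simulated counts.

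The members and lists were chosen with earlier results of these data known. All members are named, with, for each, the locus of highest Pearson r of group means. List genes named are up to 4 called ones per list and comparison, by size of change; ARC3 was chosen after its values were seen. The design text calls the plants biological triplicates, and no label ties a library to a plant, so each p-value reflects the spread among these libraries only. Bottom and top libraries of equal number did not deviate together in every pair, so numbers were not used to pair them; at index 0.8 in prostrata all 3 pairs did. Leaf 9 columns were matched as a group, so their numbers only name them. Alternatives were library totals, no filter, no fold threshold, DESeq2 1.42.0, a replicate block, leaf 10 alone, only the groups compared, 1 added to each count, tops only, and leaving out each library.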

Additional observations from a re-analysis of the deposited data

Results flagged for a closer look

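The age changes of FTSZ1 and ARC5 differed between the species by the test of the difference itself, at an adjusted p under 0.05 in edgeR. For FTSZ1 the difference, rosea minus prostrata, was -0.61 on the log2 scale (SE 0.22, adjusted p = 0.038), between -0.67 and -0.54 without any 1 library and between -0.73 and -0.58 under the other settings, the first on library totals (adjusted p = 0.00595). Without 1 library at a time FTSZ1 no longer passed in 10 of 18 cases, with an adjusted p of 0.0179 to 0.0895, while ARC5 passed in all 18. For ARC5 it was 0.55 (SE 0.16, adjusted p = 0.00917), between 0.51 and 0.59 without any 1 library and between 0.41 and 0.56 under the other settings. The 0.41 is the value on library totals, where ARC5 did not pass (adjusted p = 0.11). All 6 prostrata libraries at index 0.8 lay above the 1 mm libraries in FTSZ1, and all 6 rosea libraries did so in ARC5. In the other species all but 1 library did so for each gene. The exceptions were a rosea top in FTSZ1 (79.3 CPM) and a prostrata bottom in ARC5 (84 CPM). At this adjusted p 25.2% of all loci differed.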

How the results depend on the processing

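Counts of called division genes were the same with DESeq2, with no low-count filter and with only the groups compared, and, for the species over stages and the growth steps, with leaf 10 alone for 7.5 mm. With library totals 0 were called with age in prostrata, 0 with age in rosea and 0 in growth steps, without a share of all loci to set beside them. The sign then turned for the age change of ARC6 (-0.48, adjusted p = 0.00595), PARC6 (-0.416, adjusted p = 0.00838) and ARC5 (-0.276, adjusted p = 0.0548) in prostrata. It also turned for FTSZ1 (-0.217, adjusted p = 0.149), ARC6 (-0.276, adjusted p = 0.099) and PARC6 (-0.252, adjusted p = 0.0982) in rosea. MIND turned from 7.5 mm to index 0.3 in prostrata (-0.227, adjusted p = 0.0288). These values moved with the median of all loci. With no fold threshold the counts were 9 between species over stages, 21 at single stages, 6 and 8 with age in prostrata and rosea, 2 for the difference of age changes, 14 in growth steps, and 2 and 1 between top and bottom. Ratios against tops only gave 0, since 3 libraries against 3 cannot reach the threshold.

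A replicate block gave 3 called with age in prostrata, FTSZ2-1 being at 0.998, and changed no other count. In the pairing check, bottoms and tops of equal number correlated between -0.441 and 0.405. Without 1 library at a time the counts ran from 0 to 0 between species over stages, 0 to 1 at single stages, 2 to 4 with age in prostrata, 2 to 4 with age in rosea, 0 to 0 for the difference, 1 to 1 in growth steps, 0 to 0 between top and bottom in each species, and 0 to 4 for the ratios. Depth limits PDV1 and PDV2 most.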
